A study of Mus musculus with 9 samples.

Results

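The E proteins, their Id antagonists, the Ikaros family and Ebf1 are transcription regulators through which blood progenitors become committed to the lymphoid lineages. Transcripts of 10 such genes were examined in 3 mouse myeloid cell lines, with 3 RNA-seq libraries per line. They were chosen by name: the E protein genes *Tcf3*, *Tcf12* and *Tcf4*, the Id genes *Id1*, *Id2* and *Id3*, the Ikaros family genes *Ikzf1*, *Ikzf2* and *Ikzf3*, and *Ebf1*. All 10 were among the 54347 genes of the table, and 8 were among the 13082 genes with enough counts to be tested. *Id3* and *Ikzf3* did not pass this filter on low counts and are described by their counts.

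The mouse behind Hox-WT was wild type, and the mouse behind Hox-URE carried the homozygous UREd/d deletion. It removes the upstream regulatory element, which enhances *Spi1* and thereby supplies the transcription factor PU.1. Both Hox lines were lineage-negative c-Kit+ bone marrow progenitors immortalized with Hoxb8-ER, in which Hoxb8 is fused to a domain that needs estradiol to work. URE-AML was derived from the blasts of a leukemic UREd/d mouse and is labelled AML blast-like. Per the labels, all lines were kept in IMDM with fetal calf serum, IL-3, IL-6 and SCF at 10 ng/ml each and 1 µM β-estradiol. The methods of the study name another concentration of estradiol. Since 1 line stands for each genotype and stage, the differences below are between lines. Nothing in the labels ties libraries to separate cultures, and their spread may be technical. The Hox lines share the immortalization but differ in genotype and clone, which cannot be told apart. Hox-URE and URE-AML share the genotype, but immortalization, clone and stage cannot be told apart between them. Between URE-AML and Hox-WT none of these can be told apart.

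Total counts were 20331064 to 28588718 per library, at which 3 counts correspond to 0.104 to 0.153 CPM (counts scaled to the size of the library). That floor covers counting error only. *Spi1* itself stood at 102.5 ± 6.79 CPM (mean ± SD, n = 3) in Hox-WT, at 0, 1 and 1 counts in the Hox-URE libraries, and at 4.79 ± 2.02 CPM in URE-AML. Of the defining markers of mature lymphocytes, *Cd3e*, *Cd3g*, *Cd8a*, *Ms4a1*, *Pou2af1* and *Ncr1* had no count in any library. Transcripts of the myeloid progenitor markers summed to 4346 to 17950 CPM in the 9 libraries. Single markers within this sum differed widely between lines, as given further below.

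E proteins are basic helix-loop-helix factors that bind E-box motifs as dimers and open the B and T lineage programs. Id proteins share the dimerization domain but lack the basic region, so a dimer of an Id and an E protein cannot bind DNA. Ikaros family proteins are zinc finger factors that act largely through the NuRD corepressor, and Ebf1 is the factor that, together with E proteins, commits progenitors to the B lineage. PU.1 acts in the same progenitors, where high levels go with macrophage fate and low levels are compatible with B lineage fate.

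Levels of different genes were compared as CPM per kb of exon (CPM divided by the annotated exon bases of the gene). On this scale *Tcf3*, *Ikzf1* and *Id1* were the most abundant members in Hox-WT, at 28.3 ± 1.14, 28.01 ± 1.11 and 27.3 ± 5.87 CPM per kb (n = 3), and they did not differ beyond their spread. In Hox-URE *Id1* (42.6 ± 16.2) and *Ikzf1* (37.3 ± 1.97) headed the order and overlapped, followed by *Tcf3* (13.5 ± 1.18) and *Tcf12* (11.4 ± 0.943). In URE-AML *Id1* alone led at 102.7 ± 17.1 CPM per kb, above *Ikzf1* at 26.3 ± 3.40 and *Tcf3* at 22.3 ± 1.67, which overlapped each other. *Id3* and *Ikzf3* were at the bottom in each Hox line, at 0.133 CPM per kb or less. In URE-AML the bottom was shared by *Id3*, *Ikzf2*, *Ikzf3* and *Ebf1*, all at 0.0239 CPM per kb or less. Parts of this order depend on the length used. Per kb of the longest annotated transcript, *Tcf12* (28.1 ± 2.32) exceeded *Tcf3* (18.4 ± 1.62) in every Hox-URE library, and *Tcf3* alone led in Hox-WT at 38.8 ± 1.56.

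**Figure D1:**
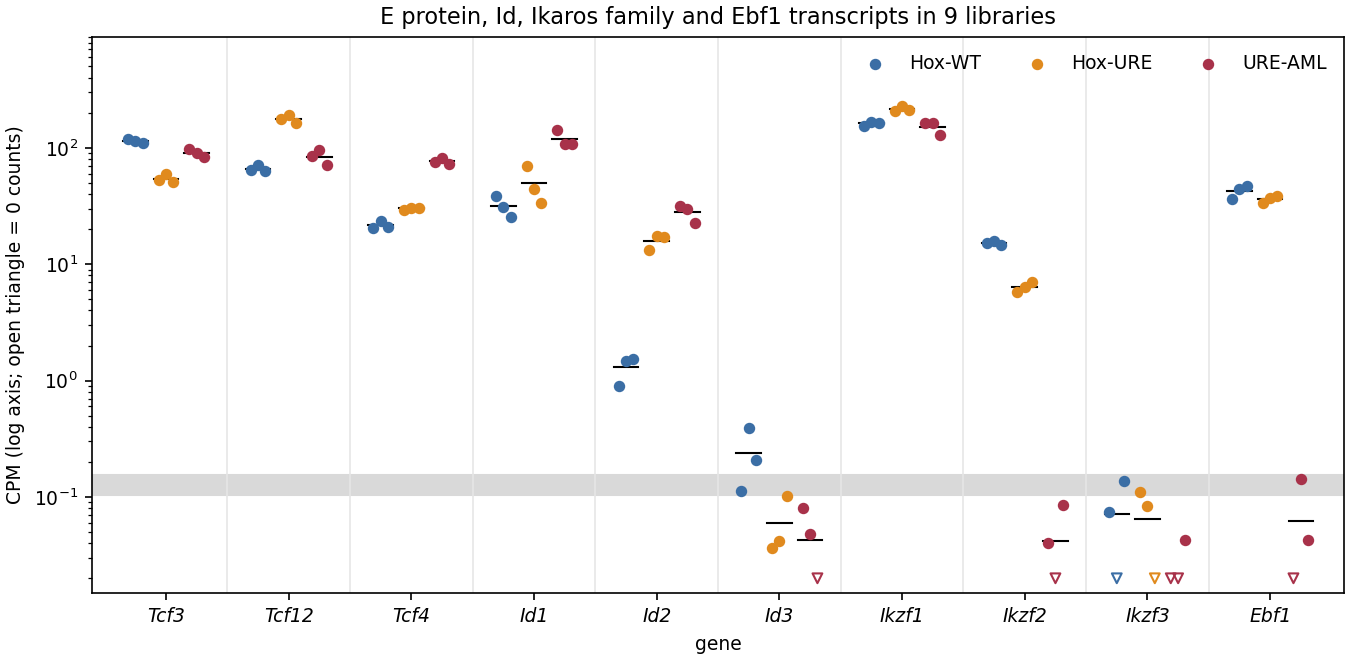
CPM of the 10 genes in each of the 9 libraries on a log axis, coloured by line, with the mean of each line as a black bar, open triangles for libraries at 0 counts and the grey band for the floor of 3 counts (0.104 to 0.153 CPM). *Id2* rises out of the Hox-WT range in both other lines, and *Ikzf2* and *Ebf1* reach the grey band only in URE-AML.

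A gene was called where its adjusted p was below 0.05 and it differed by more than 1.5-fold. With Hox-URE set against Hox-WT, 2 of the 8 tested members were higher, *Id2* and *Tcf12*, where 21.3% of all tested genes were called higher. The 2 members called lower were *Tcf3* and *Ikzf2*, where 15.9% of tested genes were. With URE-AML set against Hox-WT, 3 members were higher, *Id1*, *Id2* and *Tcf4*, against a background of 23.0%, and 2 were lower, *Ikzf2* and *Ebf1*, against 20.2%. With URE-AML set against Hox-URE, 4 members were higher, *Tcf3*, *Tcf4*, *Id1* and *Id2*, where the background was 20.3%, and 3 were lower, *Tcf12*, *Ikzf2* and *Ebf1*, where it was 22.4%. Scaled by library size only, the members called in each direction numbered the same, but the balance of all genes turned in the comparisons of Hox-URE. Higher and lower calls were then 2502 and 2545 instead of 2789 and 2084 against Hox-WT, and 3166 and 2605 instead of 2662 and 2929 for URE-AML against Hox-URE. Each comparison shares its libraries with the other two, so the counts are not independent. The median log2 fold change of the 8 members was 0.45, 0.13 and 0.11 in the 3 comparisons, and that of all tested genes was 0.00025, 0.0016 and 0. Counts given below for the 3 comparisons keep this order. The shares of all tested genes given above are the background for the gene lists below as well.

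**Figure D2:**
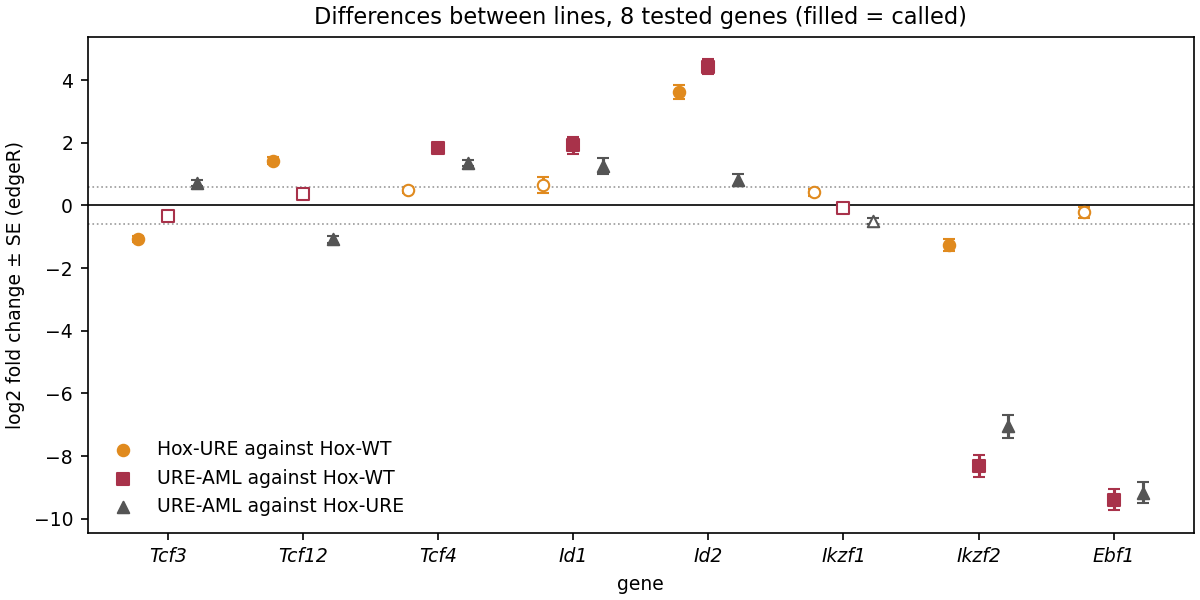
Log2 fold change with SE from the edgeR fit for the 8 tested members, with one marker shape per comparison, filled markers for called genes and dotted lines at a fold change of 1.5. The E protein genes have estimates on both sides of 0 in each comparison, and the longest distances from 0 belong to *Ikzf2* and *Ebf1* in both comparisons of URE-AML, where the fitted size depends on the handling of counts near 0.

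*Tcf3* and *Tcf12*, the E protein genes with main roles in B and T cell development, moved in opposite directions in Hox-URE. *Tcf3* (ENSMUSG00000020167, chromosome 10, 80409514 to 80433647, minus strand, GRCm38) had 3178, 3198 and 3179 counts in the Hox-WT libraries, 1456, 1441 and 988 in Hox-URE and 2405, 1884 and 1949 in URE-AML. In CPM these were 114.4 ± 4.59, 54.4 ± 4.77 and 90.1 ± 6.76 (n = 3), and no library of a line overlapped another line. The Hox-URE level of *Tcf3* was 2.10-fold lower than the Hox-WT level (log2 −1.07 ± 0.09 SE, adjusted p = 8.65e-06). URE-AML lay between the Hox lines. It was 1.66-fold above Hox-URE (adjusted p = 9.25e-05), a call that was lost in glmTreat, which tests whether the change exceeds 1.5-fold (adjusted p = 0.0713). Against Hox-WT its difference of log2 −0.34 ± 0.09 met the p threshold (adjusted p = 0.00929) but not the fold threshold.

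*Tcf12* (ENSMUSG00000032228, chromosome 9, 71842688 to 72111871, minus strand) encodes HEB, the E protein prominent in early thymocytes. Its counts were 1714, 1974 and 1814 in Hox-WT, 4849, 4630 and 3183 in Hox-URE and 2116, 1993 and 1670 in URE-AML, or 65.8 ± 4.11, 177 ± 14.6 and 84.0 ± 11.6 CPM. All Hox-URE libraries lay above all others. *Tcf12* in Hox-URE was 2.69-fold that in Hox-WT (log2 1.43 ± 0.12, adjusted p = 4.87e-06), and URE-AML was 2.11-fold below Hox-URE (log2 −1.08 ± 0.11, adjusted p = 2.36e-05). The difference between URE-AML and Hox-WT, log2 0.35 ± 0.11, did not reach the fold threshold (adjusted p = 0.0227). A processed pseudogene on the opposite strand within *Tcf12*, *Rpl15-ps2*, had 4 to 25 counts in the Hox libraries and 1025 to 1316 in URE-AML. The libraries were stranded, and the part of this transcript in the *Tcf12* counts was not tested.

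*Tcf4* (ENSMUSG00000053477, chromosome 18, 69343356 to 69689079, plus strand), the E protein gene that specifies plasmacytoid dendritic cells, was the only E protein gene called higher in both comparisons of URE-AML. It had 550, 661 and 599 counts in Hox-WT, 803, 740 and 596 in Hox-URE and 1888, 1733 and 1704 in URE-AML. The CPM of 21.7 ± 1.70, 30.1 ± 0.767 and 77.3 ± 4.74 did not overlap between lines. *Tcf4* in URE-AML was 3.57-fold that in Hox-WT (log2 1.84 ± 0.10, adjusted p = 1.16e-07) and 2.57-fold that in Hox-URE (log2 1.36 ± 0.10, adjusted p = 1.11e-06). The step from Hox-WT to Hox-URE, log2 0.48 ± 0.10, was below the fold threshold (adjusted p = 0.0019).

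The composition of the E protein pool differed between lines. Per length, the 3 genes summed to 32.03 to 34.4 CPM per kb in the Hox-WT libraries, whereas Hox-URE had 24.1 to 28.3 and URE-AML 28 to 32.3. *Tcf3* made up 84.0 to 85.8% of that sum in Hox-WT, whereas Hox-URE had 51.4 to 52.3% and URE-AML 70.9 to 74.4%. *Tcf12* supplied 12.03 to 13.5%, 43.5 to 44.5% and 16.5 to 19.5%, and *Tcf4* 2.19 to 2.56%, 3.96 to 4.62% and 8.61 to 9.62%. For all 3 genes the shares of the lines did not overlap. These are shares of transcript per annotated exon base, and which gene leads in Hox-URE depends on the length used. Per kb of the longest annotated transcript, *Tcf12* led in Hox-URE with 55.6 to 56.7% against 36.4 to 37.3% for *Tcf3*, while *Tcf3* still led in Hox-WT (73.5 to 76.2%) and in URE-AML (55.2 to 59.5%). With no division by length, *Tcf3* was 54.8 to 58.4%, 20.5 to 21.2% and 33.6 to 37.5% of the sum in the 3 lines. On all 3 scales the share of *Tcf3* was highest in Hox-WT and lowest in Hox-URE without overlap. *Tcf12* had its highest share in Hox-URE on each of them, and *Tcf4* in URE-AML. The summed level kept no such order. It overlapped between all lines per kb of the longest transcript (Hox-WT 49.7 to 53.0, Hox-URE 46.5 to 54.3, URE-AML 48.3 to 55.4), and with no division by length it was lowest in Hox-WT (193.5 to 208.3 CPM, against 243.5 to 282.3 in Hox-URE).

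*Id2* showed the largest rise among the members in both comparisons with Hox-WT. Its protein restrains E proteins in innate lymphoid, natural killer and dendritic cell development. *Id2* (ENSMUSG00000020644, chromosome 12, 25093799 to 25097140, minus strand) had 24, 41 and 44 counts in Hox-WT, 362, 425 and 335 in Hox-URE and 785, 630 and 524 in URE-AML. The levels of 1.295 ± 0.344, 16.0 ± 2.43 and 28.1 ± 4.90 CPM (n = 3) did not overlap. Against Hox-WT, *Id2* was 12.2-fold higher in Hox-URE (log2 3.61 ± 0.23, adjusted p = 9.66e-07) and 21.5-fold higher in URE-AML (log2 4.43 ± 0.24, adjusted p = 1.26e-07). URE-AML was 1.76-fold above Hox-URE (log2 0.81 ± 0.19, adjusted p = 0.00444), a call that glmTreat did not make (adjusted p = 0.123).

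*Id1* (ENSMUSG00000042745, chromosome 2, 152736251 to 152737410, plus strand) is a target of BMP signalling and of cytokine signalling in myeloid progenitors. It had 1035, 863 and 730 counts in Hox-WT, 1926, 1078 and 657 in Hox-URE and 3518, 2270 and 2501 in URE-AML. In CPM this was 31.6 ± 6.81, 49.5 ± 18.8 and 119.1 ± 19.9. The Hox lines overlapped and the URE-AML libraries lay above both. *Id1* in URE-AML was 3.77-fold that in Hox-WT (log2 1.91 ± 0.26, adjusted p = 0.000124) and 2.40-fold that in Hox-URE (log2 1.27 ± 0.26, adjusted p = 0.0017). Between the Hox lines the estimate of log2 0.65 ± 0.26 was not called (adjusted p = 0.0543). This result lay at the threshold, and 6 of 17 alternatives called it. In 4 of them all 9 libraries were kept: DESeq2 (adjusted p = 0.0233), a fit without the count filter (0.0151), a stricter filter of 10 counts per library (0.0456), and a term for the library number, which is a number in the labels and not a known pairing (0.0032). Without Hox-URE 3 the estimate was log2 0.85 with an adjusted p of 0.0118, and without Hox-WT 1 it was 0.82 with 0.0404, both calls, whereas without Hox-URE 1 it was 0.30 with 0.229.

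*Id3* (ENSMUSG00000007872, chromosome 4, 136143497 to 136145755, plus strand), which in lymphocytes acts beside *Id2* downstream of antigen receptor signals, was close to the floor. It had 3, 11 and 6 counts in Hox-WT, 1, 1 and 2 in Hox-URE and 2, 1 and 0 in URE-AML. From the summed counts the level in Hox-WT was 4.26 times that of Hox-URE (95% counting interval 1.43 to 17.1) and 5.51 times that of URE-AML (1.63 to 28.96). These intervals cover counting error only. In the edgeR fit with no filter on low counts *Id3* was not called for Hox-URE or URE-AML against Hox-WT (adjusted p = 0.163 and 0.0957). *Id4*, a further Id gene, had 0 counts in all 9 libraries.

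Summed per length, the Id genes stood at 22.5 to 33.9 CPM per kb in Hox-WT, whereas Hox-URE had 36.0 to 65.9 and URE-AML 101.7 to 135.5. *Id1* supplied 96.7 to 98.7% of this sum in Hox-WT, whereas Hox-URE had 80.4 to 91.8% and URE-AML 88.3 to 90.9%. The ratio of summed Id to summed E protein level was 0.985, 0.813 and 0.703 in the Hox-WT libraries, 2.58, 1.62 and 1.496 in Hox-URE and 4.19, 3.37 and 3.63 in URE-AML. The lines did not overlap, with means of 0.834 ± 0.142, 1.90 ± 0.592 and 3.73 ± 0.421 (SD, n = 3). A two-sided exact permutation test gave p = 0.1 for each pair of lines, the smallest this test allows with 3 against 3 libraries, so it cannot reach 0.05. The order of the lines was the same with the longest annotated transcript as the length and with no division by length, although the ratio itself depends on this choice. A ratio of transcripts says nothing of the proteins.

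**Figure D3:**
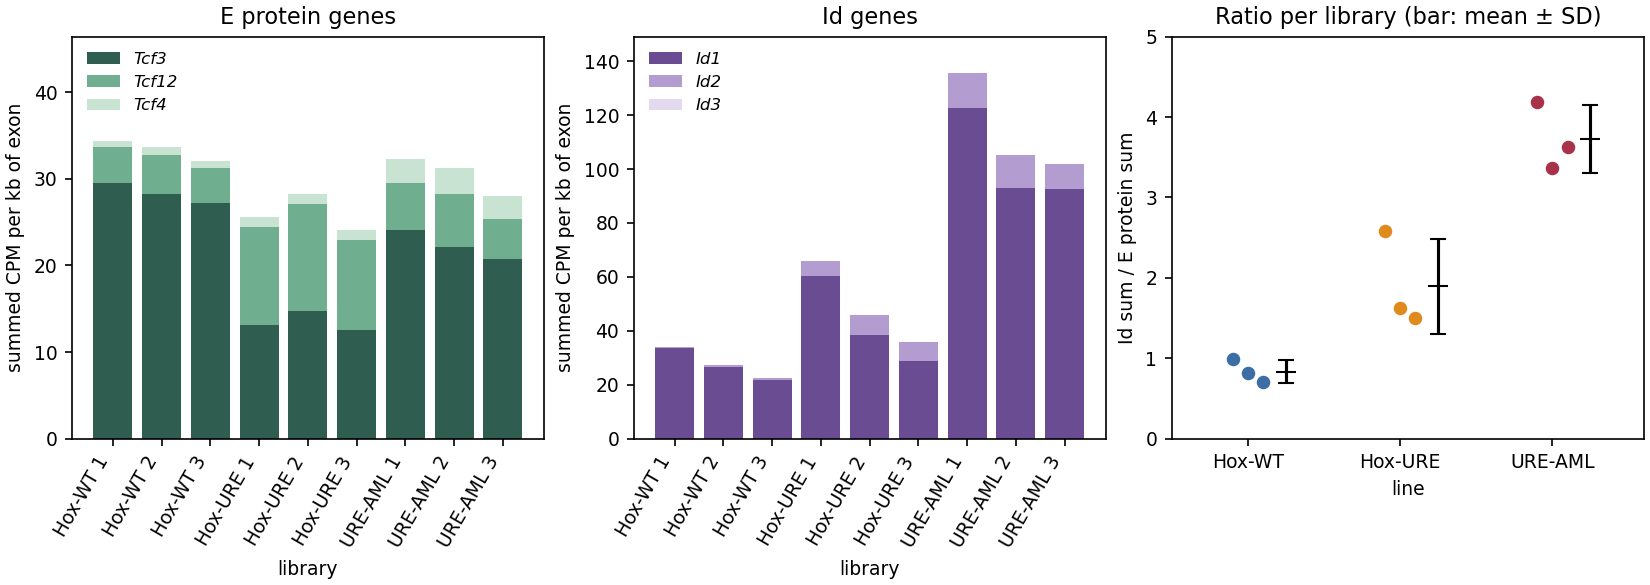
Summed CPM per kb of exon of the E protein genes (left) and of the Id genes (middle) in each library, stacked by gene, and the ratio of both sums per library with mean ± SD by line (right). The E protein bars stay between 24.1 and 34.4 CPM per kb while *Tcf12* widens in Hox-URE, and the ratio runs from 0.703 in a Hox-WT library to 4.19 in a URE-AML library.

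The Ikaros family separated into a gene with similar levels in all lines, *Ikzf1*, and one with steep differences, *Ikzf2*. *Ikzf1* (ENSMUSG00000018654, chromosome 11, 11685003 to 11772926, plus strand) encodes Ikaros, which is required for lymphoid priming of progenitors. Its counts were 4132, 4690 and 4713 in Hox-WT, 5658, 5505 and 4160 in Hox-URE and 4010, 3462 and 3014 in URE-AML, or 162 ± 6.39, 216 ± 11.4 and 152 ± 19.7 CPM. Hox-URE lay above the other lines, which overlapped. No comparison was called. Hox-URE differed from Hox-WT by log2 0.41 ± 0.10 (adjusted p = 0.00686) and from URE-AML by a fold of 1.42 (adjusted p = 0.0019), both under the fold threshold, and URE-AML differed from Hox-WT by log2 −0.09 ± 0.10 (adjusted p = 0.483).

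*Ikzf2* (ENSMUSG00000025997, chromosome 1, 69531214 to 69687245, minus strand) encodes Helios, which is found in stem cells and regulatory T cells. It had 409, 447 and 422 counts in Hox-WT, 159, 155 and 137 in Hox-URE and 1, 0 and 2 in URE-AML. Its level fell from 15.3 ± 0.685 to 6.41 ± 0.605 CPM between the Hox lines, 2.39-fold (log2 −1.26 ± 0.20, adjusted p = 0.000403). In URE-AML it was at or under the floor. From the summed counts the level in Hox-WT was 352 times that of URE-AML (95% counting interval 120 to 1710, adjusted p = 2.61e-08) and the level in Hox-URE 146 times (49.6 to 710, adjusted p = 1.17e-07). *Ikzf3* (ENSMUSG00000018168, chromosome 11, 98464902 to 98546031, minus strand), which encodes Aiolos of later lymphocyte stages, had 2, 0 and 4 counts in Hox-WT, 3, 2 and 0 in Hox-URE and 0, 0 and 1 in URE-AML. No difference was detectable at this depth.

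*Ebf1* and *Ikzf2* were the members with the widest ranges between lines. Their counting intervals for Hox-WT over URE-AML overlapped, and both rest on counts near 0 in URE-AML, so they are not ranked. *Ebf1* (ENSMUSG00000057098, chromosome 11, 44617317 to 45008091, plus strand) had 965, 1250 and 1352 counts in Hox-WT, 917, 899 and 755 in Hox-URE and 0, 3 and 1 in URE-AML. Both Hox lines carried it at a moderate level, 42.5 ± 5.60 and 36.4 ± 2.69 CPM, and their libraries overlapped (log2 −0.22 ± 0.17, adjusted p = 0.290). In URE-AML no library passed 0.143 CPM. The level in Hox-WT was 737 times that of URE-AML (95% counting interval 288 to 2707, adjusted p = 8.56e-09) and that in Hox-URE 624 times (243 to 2292, adjusted p = 1.20e-08). The antisense gene within *Ebf1*, *Gm12158*, had 0 counts. In these bulk samples fewer cells with a transcript and less of it per cell cannot be told apart, for *Ebf1* as for the other members.

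Promoter sequences of 4 called members are shown because E proteins, Ebf1, PU.1 and Ikaros are known to act on one another's genes, and the letters they recognize can be read there. The table of RefSeq windows used here (GRCm38.p6) held 6 of the 10 members, with 10 windows in all, and the 250 bases before each start site were searched on both strands. Members without a window in this table were *Id1*, *Ikzf2*, *Ikzf3* and *Tcf4*. The letters searched were CANNTG (E-box), GAGGAAGT (a PU.1 site), CCCNNGGG (the core of an EBF site), TGGGAA (Ikaros) and TGTGGT (RUNX). Only stretches outside every annotated exon of GENCODE M21 are printed, 5′ to 3′ on the strand of the gene, with matches in capitals, and no printed match overlaps another motif.

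*Ebf1*, chr11:44619978-44620227, plus strand, all 250 bases of the downstream window, whose start lies 2128 bases after that of the other *Ebf1* window: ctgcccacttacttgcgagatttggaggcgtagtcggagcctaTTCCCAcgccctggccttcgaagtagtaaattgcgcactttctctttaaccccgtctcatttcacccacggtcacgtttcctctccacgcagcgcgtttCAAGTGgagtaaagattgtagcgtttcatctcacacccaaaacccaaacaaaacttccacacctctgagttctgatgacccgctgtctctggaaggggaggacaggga
*Id2*, chr12:25096254-25096342, minus strand, 89 bases: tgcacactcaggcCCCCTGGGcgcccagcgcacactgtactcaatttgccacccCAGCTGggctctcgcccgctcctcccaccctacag
*Tcf12*, chr9:72111872-72112069, minus strand, 198 bases of the most upstream of 3 windows: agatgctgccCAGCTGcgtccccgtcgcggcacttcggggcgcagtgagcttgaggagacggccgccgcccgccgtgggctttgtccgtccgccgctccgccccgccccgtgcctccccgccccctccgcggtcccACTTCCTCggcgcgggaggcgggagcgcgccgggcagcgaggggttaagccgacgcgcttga
*Tcf3*, chr10:80433648-80433885, minus strand, 238 bases: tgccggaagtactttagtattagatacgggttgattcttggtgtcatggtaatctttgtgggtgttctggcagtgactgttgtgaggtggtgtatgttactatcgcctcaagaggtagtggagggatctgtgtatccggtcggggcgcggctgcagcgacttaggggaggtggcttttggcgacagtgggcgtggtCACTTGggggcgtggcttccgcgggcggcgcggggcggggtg

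Each of the 4 printed stretches held 1 E-box, CAAGTG in *Ebf1* at 108 bases before the start site, CAGCTG in *Id2* at 196 bases and in *Tcf12* at 240 bases, and CACTTG in *Tcf3* at 54 bases. Besides these, *Ebf1* held the Ikaros letters at 207 bases, *Id2* the EBF letters at 237 bases, and *Tcf12* the PU.1 letters at 114 bases. Over all windows of the members, 5 of 10 held an E-box, against 66.2% of the 32851 windows in the table. The PU.1 letters were in 1 of the 10 and in 2.44% of all windows, the EBF letters in 2 and in 11.8%, the Ikaros letters in 1 and in 21.6%, and the RUNX letters in 1 and in 14% of all windows. These are matches of letters and not sites of binding.

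The partners and co-regulators of E proteins include the Lmo and Ldb1 adaptors, the Tal1 and Lyl1 dimer partners, the ETO family corepressors and the competing Zeb repressors. Of 17 listed genes 13 were tested. Called higher were 3, 1 and 2 and called lower 2, 5 and 5 in the 3 comparisons, with median log2 fold changes of −0.02, −0.11 and −0.48. *Tal1*, the stem cell and erythroid dimer partner, had 3974, 3991 and 4707 counts in Hox-WT, 5509, 6672 and 5871 in Hox-URE and 2685, 1794 and 2030 in URE-AML. Against Hox-WT it was 1.71-fold higher in Hox-URE and 1.62-fold lower in URE-AML (adjusted p = 0.00174 and 0.00286). *Cbfa2t3*, an ETO family corepressor that binds E proteins, and *Lmo2* were 3.34-fold and 3.01-fold below Hox-WT in URE-AML (adjusted p = 4.91e-06 and 7.33e-06). *Lmo1*, a T cell oncogene in the same adaptor family, had 205, 156 and 68 counts in Hox-URE and 0 in all other libraries. *Lyl1* was called in no comparison, at 119, 117 and 118 CPM on average in the 3 lines.

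The Ikaros partner list held the other family members *Ikzf4* and *Ikzf5* and the NuRD, Sin3 and CtBP genes, and all 20 were tested. Called higher were 2, 2 and 1 and called lower 3, 2 and 2, with medians of −0.05, −0.08 and 0.13. Of all tested genes 21.3%, 23.0% and 20.3% were called higher and 15.9%, 20.2% and 22.4% lower. *Chd3*, the NuRD remodeler also called Mi-2 alpha, was 3.97-fold below Hox-WT in URE-AML (25.1 ± 4.20 against 99.4 ± 7.90 CPM, adjusted p = 1.22e-06), while *Chd4*, the other Mi-2 remodeler, was at 563 ± 19.9 and 626 ± 25.7 CPM and was not called. *Ctbp2* in Hox-URE was 3.28-fold below Hox-WT (adjusted p = 1.06e-05). *Ikzf5* was called in no comparison, at 36.3 ± 3.07, 36.1 ± 2.53 and 36.5 ± 1.25 CPM in the 3 lines.

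Receptors and Smads of the BMP and TGF-beta pathway, which induces Id genes, were tested for 15 of 19 listed genes. Called higher were 2, 2 and 3 and called lower 5, 5 and 4, with medians of −0.32, 0.02 and −0.03. *Bmpr1a*, a type I BMP receptor, fell in the order Hox-WT, Hox-URE, URE-AML (138 ± 18.7, 90.5 ± 10.8 and 38.4 ± 3.26 CPM), each step a call. *Bmpr2*, the type II receptor, in Hox-URE was 45.5-fold below Hox-WT (18, 9 and 9 counts against 561, 704 and 671, adjusted p = 4.23e-08), and URE-AML, with 620, 548 and 456 counts, was not called against Hox-WT. *Smad1*, a BMP signal transducer, had 228, 230 and 175 counts in Hox-WT, 73, 50 and 35 in Hox-URE and 2, 1 and 0 in URE-AML. The other BMP Smad with counts, *Smad5*, stood at 44.4 ± 6.14, 46.8 ± 8.60 and 45.8 ± 7.79 CPM. *Smad3*, which carries TGF-beta signals, was 43.4-fold below Hox-WT in Hox-URE and 12.02-fold below it in URE-AML (adjusted p = 5.47e-07 and 2.03e-06).

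Listed B lineage genes, among them targets and partners of E proteins and Ebf1, were in part present in the Hox lines. Most of those present were at or near 0 in URE-AML. Of 22 listed genes 11 were tested. Called higher were 4, 3 and 2 and called lower 4, 7 and 6. The median log2 fold changes were 0, −7.07 and −1.94, and the second of these was −2.36 with genes at 0 set to their lower bound. Summed over the list, levels were 172 to 301 CPM in Hox-WT, whereas Hox-URE had 77.7 to 158 and URE-AML 12.9 to 16.8. *Pax5*, which Ebf1 induces at B lineage commitment, had 1 count in 1 Hox-WT library and 0 in all others, and *Ebf2*, *Ebf3* and *Ebf4* were at 0 throughout.

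*Igll1*, a surrogate light chain gene activated by E proteins and Ebf1, was, like *Ebf1*, at or near 0 in URE-AML. It had 3326, 5931 and 6204 counts in Hox-WT, 1216, 2132 and 1876 in Hox-URE and 0, 0 and 2 in URE-AML, and Hox-URE was 2.42-fold below Hox-WT (log2 −1.27 ± 0.30, adjusted p = 0.00468), where *Ebf1* was not called. *Dntt*, which encodes the terminal transferase of lymphoid progenitors, had 185, 453 and 757 counts in Hox-WT, 470, 884 and 833 in Hox-URE and 0 in the URE-AML libraries. The recombinase gene *Rag2* had 900, 1431 and 1433 counts in Hox-WT and 0 in all 6 other libraries, at least 347.5-fold lower in Hox-URE against a floor of 3 counts per library. *Cd79a* and *Cd79b*, which encode the signalling chains of the B cell receptor, went opposite ways between the Hox lines. *Cd79a* had 3, 7 and 5 counts in Hox-WT and 30, 62 and 51 in Hox-URE (adjusted p = 0.000475), and *Cd79b* had 33, 83 and 100 against 0, 0 and 1 (adjusted p = 0.000236). *Lef1* and *Bcl11a*, lymphoid transcription factor genes, had 53 to 149 counts in the URE-AML libraries and 0 in all Hox libraries. *Foxo1*, a partner of E proteins and Ebf1 in early B cells, exceeded its Hox-WT level 3.73-fold in Hox-URE and 2.18-fold in URE-AML (adjusted p = 6.27e-05 and 0.00147).

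**Figure D4:**
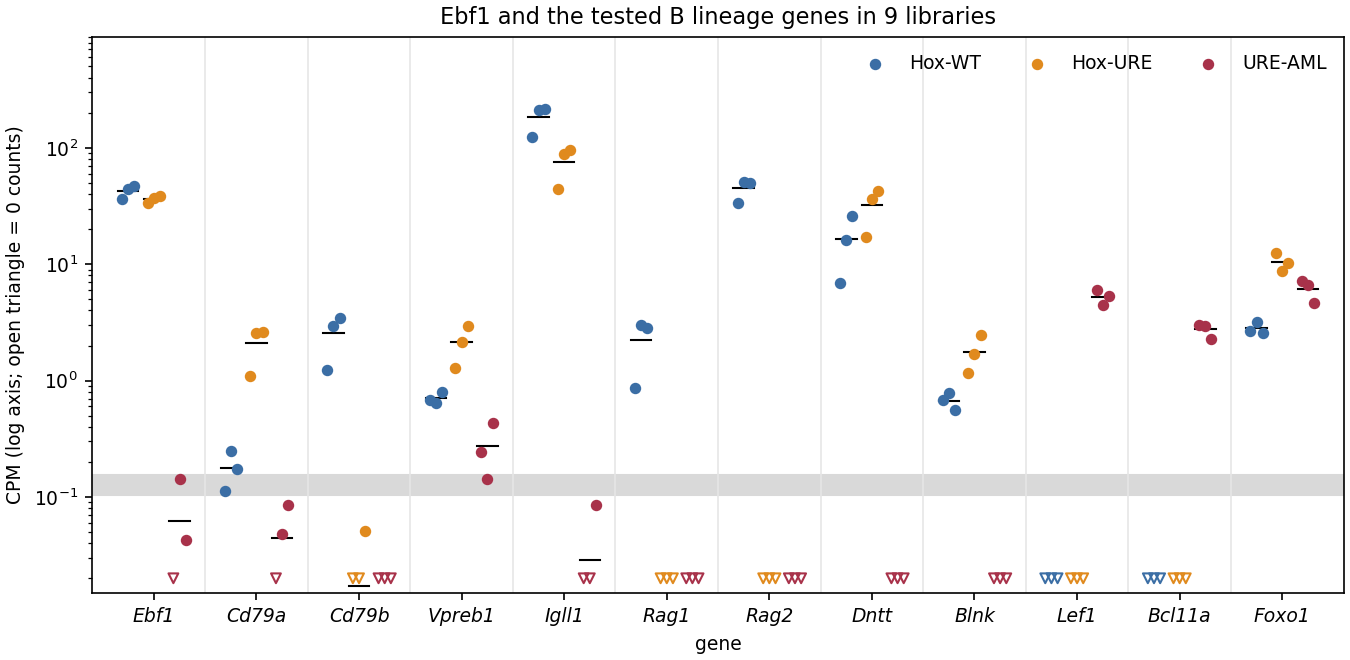
CPM of *Ebf1* and the 11 tested B lineage genes in each library on a log axis, drawn as for the members, with open triangles for 0 counts. *Ebf1*, *Igll1* and *Dntt* are at 6.94 CPM or more in all Hox libraries and at or under the grey floor in URE-AML, while *Rag1* and *Rag2* have counts in Hox-WT alone.

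T lineage genes showed another pattern. Of 19 listed genes 10 were tested. Called higher were 7, 3 and 2 and called lower 1, 3 and 7, with medians of 3.04, 0 and −4.22, the last of them −4.18 with genes at 0 set to their bound. *Notch1*, the receptor that starts the T lineage program, had 90, 82 and 84 counts in Hox-WT, 416, 293 and 319 in Hox-URE and 5784, 4629 and 4553 in URE-AML, which put URE-AML 70.5-fold above Hox-WT (log2 6.14 ± 0.15, adjusted p = 1.25e-09). Its target *Hes1* had 0, 0 and 3 counts, 5, 3 and 5 counts, and 216, 141 and 167 counts in the same order of lines. *Gata3*, a T cell and innate lymphoid factor, had 350, 318 and 247 counts in Hox-URE and 0 elsewhere, and so did *Bcl11b* with 112, 54 and 24. *Tcf7* was called lower in both other lines when set against Hox-WT (adjusted p = 0.00315 and 0.000775). *Thy1* had 3988 to 11927 counts in each Hox library and 0 in URE-AML.

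Among natural killer and innate lymphoid genes, where *Id2* has its best known role, 6 of 14 were tested. Called higher were 4, 1 and 0 and called lower 0, 2 and 3, with medians of 5.78, 1.20 and −4.54, the first of them 4.98 at the bounds. *Tox* had 5, 16 and 12 counts in Hox-WT, 439, 622 and 593 in Hox-URE and 0, 3 and 0 in URE-AML. *Rora* had 116, 99 and 40 counts in Hox-URE and at most 1 elsewhere. *Zbtb16*, the PLZF gene, was not called between the Hox lines (243, 212 and 247 against 228, 239 and 201 counts) and had 0, 5 and 2 counts in URE-AML. *Prf1*, the perforin gene, had 0, 1 and 2 counts in Hox-WT, 59, 62 and 27 in Hox-URE and 23, 54 and 70 in URE-AML, and was called higher in both lines set against Hox-WT (adjusted p = 0.000123 and 8.01e-05). *Gzmb*, which encodes granzyme B, had 0 counts in Hox-WT, 0, 38 and 167 in Hox-URE and 7, 9 and 21 in URE-AML. It was called for Hox-URE against Hox-WT (adjusted p = 0.0132), although a Hox-URE library had no count. The natural killer receptor gene *Ncr1* had no count in any library and *Tbx21* had 1 count in all.

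Genes of plasmacytoid dendritic cells, for which *Tcf4* is the defining E protein gene, were tested for 7 of 12 listed. Called higher were 0, 1 and 3 and called lower 3, 1 and 0, with medians of 0, −0.30 and 0.36. *Bcl11a* was called higher in URE-AML against both Hox lines, and *Zeb2* and *Irf8* were called higher in it against Hox-URE alone. Against Hox-WT, *Zeb2*, *Pacsin1* and *Irf8* were called lower in Hox-URE and *Pacsin1* in URE-AML. The markers *Siglech* and *Ccr9* had 0 counts in all libraries, and *Ly6d* had 2 counts in 1. Other markers of the list had counts. *Bst2*, which interferon also induces in other cells, stood at 37.6 ± 2.19, 39.4 ± 13.4 and 27.8 ± 1.99 CPM and was called in no comparison. *Pacsin1* had 13, 30 and 39 counts in Hox-WT, 0, 9 and 2 in Hox-URE and 0 in URE-AML, and *Cox6a2* had 228, 11 and 2 in Hox-URE and at most 4 in any other library. *Irf8* fell from 144, 244 and 237 counts in Hox-WT to 5, 3 and 4 in Hox-URE (adjusted p = 2.64e-05). It had 165, 85 and 41 in URE-AML, 24.0-fold above Hox-URE (adjusted p = 6.49e-05) and not called against Hox-WT. Of 11 conventional dendritic cell genes 3 were tested. Called higher were 1, 1 and 1 and called lower 1, 1 and 2, with medians of 0, −3.69 and −11.47, the last of them −6.76 at the bounds. The 3 genes went different ways. *Flt3*, the cytokine receptor gene of lymphoid-primed progenitors, had 2474, 3535 and 3051 counts in Hox-WT, 467, 348 and 219 in Hox-URE and 0 in URE-AML. *H2-Ab1*, an MHC class II gene, had 0, 5 and 0 counts in Hox-WT, 836, 743 and 464 in Hox-URE (adjusted p = 4.96e-06) and 0 in URE-AML. *Irf4*, a factor of dendritic cells and lymphocytes, had 319, 93 and 125 counts in URE-AML and 0 in the Hox libraries (adjusted p = 0.000216 against Hox-WT).

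Marker genes of other blood lineages moved with the lines as well, and their part in the results on the members was not tested. The 8 neutrophil markers summed to 51.8 to 102.6 CPM in Hox-WT, whereas Hox-URE had 111.5 to 174.4 and URE-AML 4153 to 9070, with 1, 8 and 7 called higher and 5, 0 and 0 called lower in the 3 comparisons. *Lcn2* carried the sum in Hox-URE, at 132.7 ± 36.2 against 8.06 ± 1.42 CPM in Hox-WT, while *S100a8* went from 38.4 ± 9.62 CPM in Hox-WT to 0.0723 ± 0.0849 and *S100a9*, *Ngp*, *Ltf* and *Camp* were also called lower. Basophil and mast cell markers summed to 607 to 928 CPM in Hox-WT, whereas Hox-URE had 1804 to 6370 and URE-AML 43.5 to 78.6. Of their 6 tested genes 5, 1 and 0 were called higher and 0, 4 and 6 lower. Monocyte markers summed to 49.7 to 94.2, 841 to 941 and 367 to 1033 CPM in the same lines, and 1, 1 and 1 of 6 were called higher and 4, 3 and 1 lower. Single genes carried these sums as well, *Ccr2* in Hox-URE (885 CPM on average) and *Ly6c2* in URE-AML (671 CPM). Of 8 myeloid progenitor markers 0, 3 and 4 were called higher and 5, 4 and 2 lower. Erythroid and megakaryocyte markers were at 48.6 CPM or less in sum in each library, with 2, 1 and 2 of 8 called higher and 3, 5 and 2 lower.

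The genes most like each member over the 9 libraries were found by Pearson's r of log2 CPM, as a description, since the 9 points share 3 lines and any gene that separates the lines in the same way scores high. *Ebf1* was most like *Impdh1* (r = 0.9992) and *Dlg2* (0.9986), *Id2* like *Aldh3a2* (0.9987) and *Zfp827* (0.9960), and *Ikzf2* like *Spg11* (0.9966) and *Patz1* (0.9962). *Tcf4* was most like *Serpinb6a* (0.9977) and *Muc5b* (0.9974), *Tcf12* like *Mbnl1* (0.9918) and *Znrf1* (0.9913), and *Tcf3* like *Gtf2h1* (0.9916) and *Cxxc1* (0.9904). *Id1* followed with *Hdac4* (0.9898) and *Snx18* (0.9890). *Ikzf1*, with its small differences between lines, had the lowest values, *Cnot6l* (0.9676) and *Slc22a23* (0.9668). Between 20 genes for *Ikzf1* and 627 for *Tcf4* had r over 0.95.

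The members lie on 8 chromosomes, whose median log2 fold changes over all tested genes ranged from −0.09 to 0.13 in the 3 comparisons. A call needs a change of more than 1.5-fold, which exceeds each of these medians. Called members therefore lie farther from 0 than the medians by definition, and the comparison is no test of them. The smallest gap was that of *Tcf3* in URE-AML against Hox-URE, 0.73 against a median of 0.11 on chromosome 10.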

How the data were processed

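Stranded poly-A libraries of 3 lines were sequenced, 3 for each. Reads were quantified by the authors with salmon and imported at gene level with tximport. What they deposited are estimated counts in whole numbers (build GRCm38 in the submitters' processing notes). The transcriptome release and any length scaling are not given in the sources used here. Lines and library numbers came from the labels.

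The fit used edgeR 4.0.16 (R 4.3.3), with 1 quasi-likelihood model of all 9 libraries with line as the factor, TMM scaling and filterByExpr at a minimum count of 10. Two-sided F tests were adjusted by Benjamini-Hochberg over 13082 genes. SE is the size of the log2 fold change over the root of F. Coordinates and lengths are those of GENCODE M21, promoters those of RefSeq. Count ratios have exact binomial intervals of 95%. Named were the members, *Spi1*, genes of the lists and the 2 most alike genes of each member. Genes without a call in a list, marker sums and *Rpl15-ps2* are named as context. Members and lists were chosen with earlier results of these data known, so none is independent support. The code was tested on simulated data. Alternatives were DESeq2 1.42.0, glmTreat, other scalings, filters and lengths, 6 libraries, a replicate block, and each library left out. Figures used matplotlib 3.10.9.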

Additional observations from a re-analysis of the deposited data

How the results depend on the processing

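For the 8 tested members, 402 values from up to 17 alternatives per comparison were obtained, of which 394 kept their direction and side of the thresholds, 8 changed side and 0 reversed. The 8 were those of *Tcf3* and *Id2* for URE-AML against Hox-URE under glmTreat, and 6 of *Id1* for Hox-URE against Hox-WT, whose log2 fold change ran from 0.30 to 0.85 and adjusted p from 0.0032 to 0.486. *Id1* was called under DESeq2, both other filters, the replicate block and without Hox-URE 3 or Hox-WT 1. With at least 10 counts in every library, 3 members were called for URE-AML against Hox-WT instead of 5, since *Ikzf2* and *Ebf1* were then not tested, and all genes called numbered 3200, 3602 and 3553 instead of 4873, 5648 and 5591. Leaving out each library in turn gave 4 or 5, 5 and 7 members called. Mean Id to E protein ratios (Hox-WT first, URE-AML last) were 0.541, 1.015 and 2.209 with the longest transcript as length and 0.164, 0.2505 and 0.586 without division by length, a change made by the lengths. The other lengths for shares within the E proteins were chosen after seeing the data. Scaling by library size only moved the median of all genes by 0.109 for URE-AML against Hox-URE. With the replicate block 5, 5 and 7 members were called, and 4908, 5679 and 5584 genes. Same-numbered libraries correlated at 0.01 to 0.271 in their deviations, not over 0.1 throughout, and 17 of 18 were best matched by their own number, which is a hint from the data and not the design. Counts near 0 limit *Id3* and *Ikzf3*.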
